A study of Juglans regia with 12 samples.

Results

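miR164 and miR394 were examined in flower buds of Persian walnut (Juglans regia), as the listed mature sequences whose matched miRNA name carries exactly the number of either family. The rule found 20 of the 931 sequences in the small RNA table, of which 16 were matched to miR164 and 4 to miR394. Buds of precocious walnut, labelled EF, code ZS and stage "Early flower" (3 small RNA libraries), were compared with buds of late fruiting walnut, labelled LF, code WS and stage "Late flower" (3 small RNA libraries). They are called early-flowering and late-flowering here. All were field-grown plants, and the labels give no treatment, no cultivar name and no tree age. Walnut type and the labelled stage change together, so they cannot be told apart. Whether the replicates are different trees is not stated in the labels, and p-values therefore cover the variation among these libraries alone, which may be technical. Buds are mixed tissue, and fewer cells that make a miRNA cannot be told apart from less of it per cell.

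Plant miRNAs guide cleavage or translational repression of transcripts to which they are nearly fully complementary. In Arabidopsis, miR164 represses NAC-domain genes of the CUP-SHAPED COTYLEDON group, which set the boundaries between organs, and NAC1, which acts in root branching. There the copy called miR164c limits petal number. In Arabidopsis, miR394 is made in the outermost layer of the shoot meristem and represses LEAF CURLING RESPONSIVENESS, an F-box gene, which keeps the cells below competent as stem cells. The walnut targets were not analysed here.

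The sequences below are those with at least 60 counts over the 6 libraries. They are shown because the families are made of a few end variants and arms, and the seed, bases 2 to 8, is in capitals. They are printed 5′ to 3′ with T as deposited.
jre-MIR164-2: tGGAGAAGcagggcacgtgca
jre-MIR164-4: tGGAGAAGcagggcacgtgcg
jre-MIR164-3: tGGAGAAGcagggcacgtgct
jre-MIR164-12: tGGAGAAGcagggcacgtgt
jre-MIR164-1: cATGTGCCcatcttccccatc
jre-MIR164_2-3: cACGTGCTccccttctccaac
jre-MIR394-1: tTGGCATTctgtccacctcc
jre-MIR394-2: tTTGGCATtctgtccacctcc

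Among the miR164 sequences, jre-MIR164-2 was the most abundant, with 3421 counts in all. Counted from the 5′ end of jre-MIR164-2, jre-MIR164-4 differs by A21G and jre-MIR164-3 by A21T. jre-MIR164-12 is 1 base shorter and differs by C20T. These end variants share the seed GGAGAAG, which 9 of the 16 miR164 sequences carry and which holds 78.9% of the miR164 counts. jre-MIR164-1 and jre-MIR164_2-3 begin with other bases and belong to the opposite arm by their sequence. Set against jre-MIR164-2 with 2 bases left free at each 3′ end, jre-MIR164-1 pairs at 16 of 19 positions (15 Watson-Crick pairs and 1 G-T pair). In the same layout jre-MIR164_2-3 pairs at 17 of 19 (16 Watson-Crick pairs and 1 G-T pair). The sequence jre-MIR164_2-3 was matched to a name without an arm, pab-miR164a, while jre-MIR164-1 was matched to aly-miR164b-3p. Counted from the 5′ end of jre-MIR164-1, they differ at 6 positions, by T3C, C8T, A10C, T11C, C16T and T20A.

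The miR394 family is almost a single sequence, jre-MIR394-1, which held 5352 of the 5678 miR394 counts. jre-MIR394-2 has 1 extra base at the 5′ end, which moves its seed by a base to TTGGCAT. This shifted seed held 4.44% of the miR394 counts, and the seed TGGCATT held 95.6%. The matched names of the 4 miR394 sequences carry no arm, so none is named as an opposite-arm sequence. The length differs between the families, since 96.8% of miR164 counts lay in sequences of 21 bases and 94.6% of miR394 counts in sequences of 20 bases. No sequence of another family in the table carried the seed of any member (0 sequences for each seed).

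The 6 libraries held 309697 to 646408 counts of listed miRNAs, and early-flowering replicate 1 had the lowest total. A count of 3, taken here as the floor of detection, corresponds to 4.76 to 10.3 CPM (a count's part of the library total at the usual scaling, after TMM factors have adjusted that total for composition). Floors and intervals on shares cover counting error only, since PCR copies are not independent molecules.

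Neither family passed the test between bud types, at an adjusted p threshold of 0.05. miR394 had the larger difference of these families, with a 1.68-fold higher level in early-flowering buds and no overlap between the types. Its sum was 1713, 2416 and 2579 CPM in early-flowering buds and 1320, 1640 and 1047 CPM in late-flowering buds. The lowest early-flowering library, replicate 1, thus stood just above the highest late-flowering one, replicate 2. The means were 2236 ± 460 CPM in early-flowering buds and 1335 ± 297 CPM in late-flowering buds (SD, n = 3 each). The log2 fold change, early-flowering minus late-flowering, was 0.74 (SE 0.27, 95% interval 0.12 to 1.37, edgeR adjusted p = 0.115). Of the 37 families tested, 13.5% passed in either direction and 8.11% were called higher, while 13.5% lay wholly above the late-flowering libraries, as miR394 did. By fold change miR394 was sixth from the top (rank 6 of 37).

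The miR394 value depended on single libraries. Without early-flowering replicate 1, the library with the lowest total, its log2 fold change was 0.86 and it passed (edgeR adjusted p = 0.00962), in a fit in which 45.2% of 42 families passed and 23.8% were called higher. Without early-flowering replicate 3 it was 0.46 (edgeR adjusted p = 0.502). The part of library depth in this was not tested.

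miR164 levels overlapped between the types. Its sum was 1655, 1829 and 1808 CPM in early-flowering buds and 1768, 1444 and 1334 CPM in late-flowering buds. Late-flowering replicate 1 reached the early-flowering range and the other 2 late-flowering libraries lay below it. The means were 1764 ± 95.3 CPM in early-flowering buds and 1515 ± 225 CPM in late-flowering buds (SD, n = 3 each). The log2 fold change was 0.22 (SE 0.23, 95% interval −0.31 to 0.75, edgeR adjusted p = 0.575). On the linear scale the interval runs from 0.805-fold to 1.68-fold, so differences inside it, in either direction, are not excluded by these libraries. The median log2 fold change over all 37 families was −0.01.

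**Figure D1:**
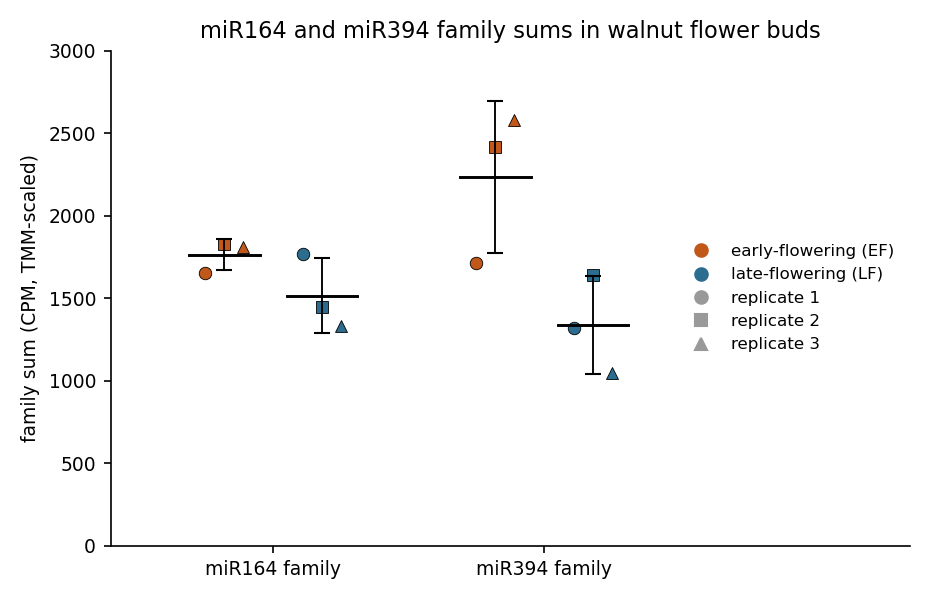
Family sums in CPM scaled by TMM factors, for miR164 and miR394; each symbol is a library, horizontal lines are means and bars are SD over 3 libraries of a type. The early-flowering miR394 libraries (1713 to 2579 CPM) lie above the late-flowering ones (1047 to 1640 CPM), and the miR164 libraries overlap.

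Both families were of middling rank among the families that passed the count filter, with a small part of all counts. miR164 held 0.175% of all counts in early-flowering buds and 0.156% in late-flowering buds, and miR394 held 0.230% and 0.135%. In early-flowering buds miR394 ranked 19 and miR164 ranked 22 of 37 families by mean CPM. In late-flowering buds miR164 ranked 21 and miR394 ranked 23. Levels of nearby families overlapped across libraries for each of these places but one. In late-flowering buds miR394 stood clear of the family below it, miR393, which targets auxin receptors and had 590 ± 77.7 CPM (SD, n = 3).

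The count ratio of miR394 to miR164 inside a library, which needs no scaling, came to 1.04, 1.32 and 1.43 for early-flowering buds. The late-flowering ratios were 0.747, 1.14 and 0.784. miR394 outnumbered miR164 in each early-flowering library and in late-flowering replicate 2, and the types overlapped. The mean log2 ratio was 0.32 ± 0.24 in early-flowering buds and −0.20 ± 0.33 in late-flowering buds (SD, n = 3 each), so the mean ratio was 1.43-fold higher in early-flowering buds. A two-sided exact permutation test gave p = 0.200, where 3 libraries a side cannot go below 0.1.

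Of the 20 sequences, 8 passed the filter on low counts, 6 of miR164 and 2 of miR394, and 12 were not tested. None of the 8 passed (0 higher and 0 lower by edgeR at an adjusted p of 0.05, 0 by DESeq2 and 0 by limma-trend), and 3 had an unadjusted edgeR p under 0.05. Of all 243 sequences tested, 11.5% passed and 34.2% had an unadjusted p under 0.05. All 8 fold changes were positive, against 56.8% of all sequences tested. Members share a family sequence and libraries and are not independent of each other.

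jre-MIR394-1, the main miR394 form, had 1558, 2297 and 2465 CPM in early-flowering buds, against 1253, 1513 and 974 CPM in late-flowering buds. The types did not overlap, and the gap lay between early-flowering replicate 1 and late-flowering replicate 2. Its log2 fold change was 0.76 (SE 0.27, 95% interval 0.13 to 1.39, edgeR adjusted p = 0.106). Of all sequences tested, 19.8% lay wholly above the late-flowering libraries. jre-MIR394-2, the form with the extra 5′ base, had 127, 81.7 and 81.0 CPM in early-flowering buds and 54.4, 107 and 61.7 CPM in late-flowering buds. These values overlapped, with a log2 fold change of 0.36 (95% interval −0.46 to 1.19, edgeR adjusted p = 0.455), and without early-flowering replicate 1 it was 0.08. The difference between the fold changes of these forms was not tested.

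The share of jre-MIR394-2 in the miR394 counts was 7.43% in early-flowering replicate 1 (Wilson 95% interval 5.44 to 10.1), 3.38% in replicate 2 (2.57 to 4.43) and 3.14% in replicate 3 (2.4 to 4.1). In late-flowering buds it was 4.12% in replicate 1 (2.92 to 5.79), 6.54% in replicate 2 (5.0 to 8.52) and 5.89% in replicate 3 (4.23 to 8.16). Early-flowering replicate 1 thus stood apart from its own type by more than these intervals, which take each read as an independent molecule. The shares averaged 4.65 ± 2.41% in early-flowering buds and 5.52 ± 1.25% in late-flowering buds (SD, n = 3 each, exact permutation p = 0.700). The main form jre-MIR394-1 held 93.9 ± 2.53% of miR394 counts in early-flowering buds and 93.4 ± 1.38% in late-flowering buds (exact permutation p = 0.800).

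jre-MIR164-2, the main miR164 form, had 912, 1161 and 1292 CPM in early-flowering buds and 1213, 1034 and 856 CPM in late-flowering buds. The types overlapped over most of their range, with a log2 fold change of 0.12 (SE 0.24, 95% interval −0.44 to 0.68, edgeR adjusted p = 0.744). Leaving out early-flowering replicate 3 turned its sign (−0.16), as did leaving out late-flowering replicate 3 (−0.05).

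jre-MIR164-4, the variant with G at its last base, was matched to miR164c of Brassica rapa. It had 189, 134 and 133 CPM in early-flowering buds and 118, 70.8 and 78.5 CPM in late-flowering buds. The types did not overlap, where 19.8% of all sequences tested lay wholly above the late-flowering libraries. Its log2 fold change was 0.76 (SE 0.31, 95% interval 0.05 to 1.47, edgeR adjusted p = 0.124). As a share of miR164 counts, a measure chosen after the values were seen, it held 8.71 ± 2.36% in early-flowering buds and 5.81 ± 0.877% in late-flowering buds (SD, n = 3 each). Those shares did not overlap either. With 3 libraries a side, non-overlap always gives an exact permutation p of 0.1, the smallest possible, so the p adds nothing to it. Early-flowering replicate 1 had the highest share, 11.4% (Wilson 95% interval 8.89 to 14.6), and the lowest early-flowering share, 7.32% in replicate 2 (5.94 to 9.0), lay close to the highest late-flowering share, 6.65% in replicate 1 (5.27 to 8.36).

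The rarer end variants rested on few counts. jre-MIR164-12 had 48.2, 58.8 and 38.1 CPM in early-flowering buds and 33.4, 30.0 and 33.6 CPM in late-flowering buds, from 14 to 36 counts a library. Its types did not overlap (19.8% of all sequences tested lay wholly above), at a log2 fold change of 0.57 (95% interval −0.17 to 1.32, edgeR adjusted p = 0.232). jre-MIR164-3, the variant with T at its last base, had 79.1, 34.3 and 19.0 CPM in early-flowering buds and 19.3, 10.7 and 20.6 CPM in late-flowering buds. Early-flowering replicate 1 stood far above the rest and replicate 3 lay inside the late-flowering range. The log2 fold change of jre-MIR164-3 was 1.27 (95% interval −0.07 to 2.62, edgeR adjusted p = 0.156) and 0.60 without early-flowering replicate 1.

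The main form held 55.1% of miR164 counts in early-flowering replicate 1 (Wilson 95% interval 50.6 to 59.5), 63.5% in replicate 2 (60.6 to 66.3) and 71.5% in replicate 3 (68.8 to 74.0). In late-flowering buds it held 68.6% in replicate 1 (65.7 to 71.4), 71.6% in replicate 2 (68.1 to 74.9) and 64.1% in replicate 3 (60.6 to 67.6). Early-flowering replicates thus differed from each other by more than these intervals, which take each read as an independent molecule. They spanned the late-flowering values but for the highest. The means were 63.3 ± 8.19% in early-flowering buds and 68.1 ± 3.76% in late-flowering buds (SD, n = 3 each, exact permutation p = 0.400).

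**Figure D2:**
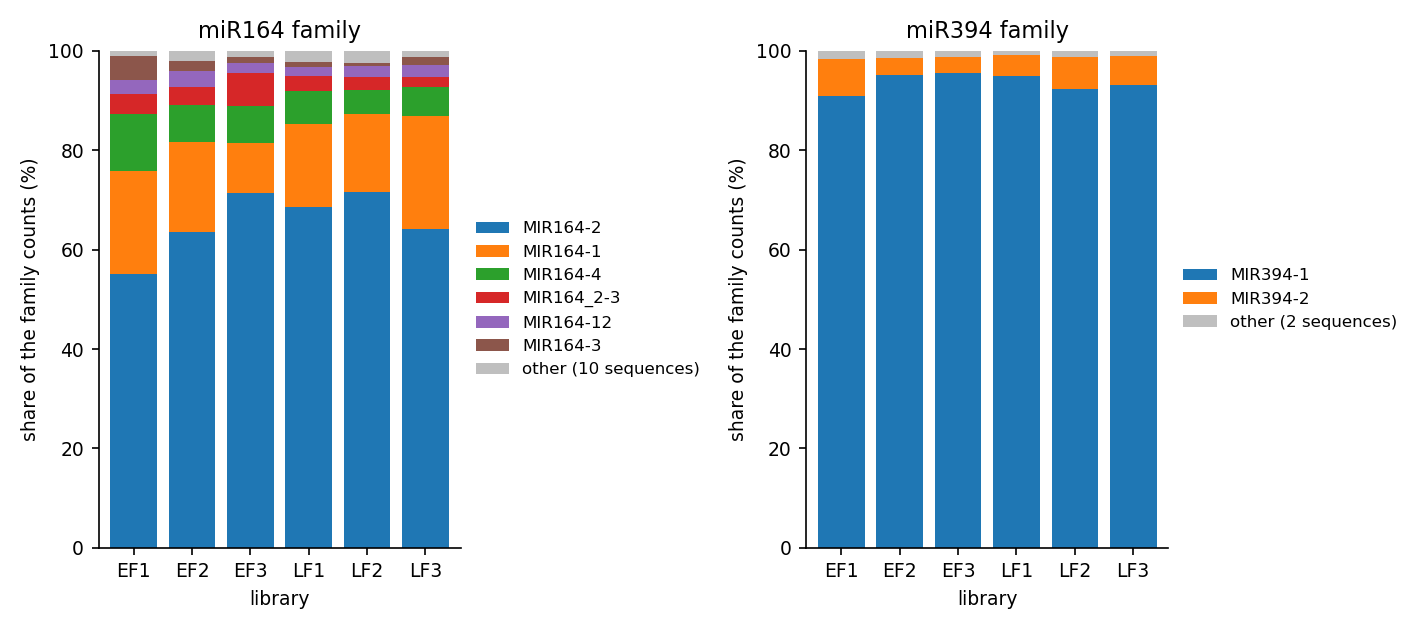
Share of each family's counts held by each sequence with at least 60 counts, by library, with the remaining sequences in grey. jre-MIR164-2 holds 55.1% to 71.6% of miR164 counts and jre-MIR394-1 holds 91.0% to 95.6% of miR394 counts.

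On the opposite arm of miR164, jre-MIR164-1 was the main form. It had 344, 333 and 181 CPM in early-flowering buds and 293, 225 and 303 CPM in late-flowering buds. The types overlapped, with a log2 fold change of 0.06 (95% interval −0.67 to 0.79, edgeR adjusted p = 0.903) that changed sign under several settings. jre-MIR164_2-3 had 65.4, 68.6 and 121 CPM in early-flowering buds and 52.7, 38.6 and 26.2 CPM in late-flowering buds. Its types did not overlap (19.8% of all sequences tested lay wholly above), and early-flowering replicate 3 was the highest library. The log2 fold change of jre-MIR164_2-3 was 1.12 (SE 0.39, 95% interval 0.23 to 2.02, edgeR adjusted p = 0.0995), and 0.61 without early-flowering replicate 3.

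The count ratio of jre-MIR164_2-3 to jre-MIR164-1 within a library, a pair picked after the values were seen, was 0.190, 0.206 and 0.667 for the early-flowering libraries. For the late-flowering ones it was 0.180, 0.171 and 0.0864. The types did not overlap, but early-flowering replicates 1 and 2 lay next to late-flowering replicates 1 and 2, and early-flowering replicate 3 and late-flowering replicate 3 lay at the extremes. The difference of the mean log2 ratios was 1.1 (2.14-fold, exact permutation p = 0.1, the smallest possible, which non-overlap always gives here). Without early-flowering replicate 3 the difference was 0.51, or 1.43-fold.

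Sequences matched by name to a 3p arm held 16.9 ± 5.34% of miR164 counts in early-flowering buds and 18.9 ± 3.61% in late-flowering buds (SD, n = 3 each, exact permutation p = 0.700). With the arm read from the sequence, which adds jre-MIR164_2-3, the share was 21.7 ± 3.78% in early-flowering buds and 21.5 ± 3.13% in late-flowering buds (exact permutation p = 1). The difference of these means, 0.247 percentage points, was smaller than either SD. No matched miR394 name carries an arm, so the share by name was 0 in every library whatever was sequenced. By sequence, jre-MIR394-2 and jre-MIR394-3 differ from jre-MIR394-1 only in length, and jre-MIR394-4 differs by T1C. None of the listed miR394 sequences is thus an opposite-arm form of another.

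**Figure D3:**
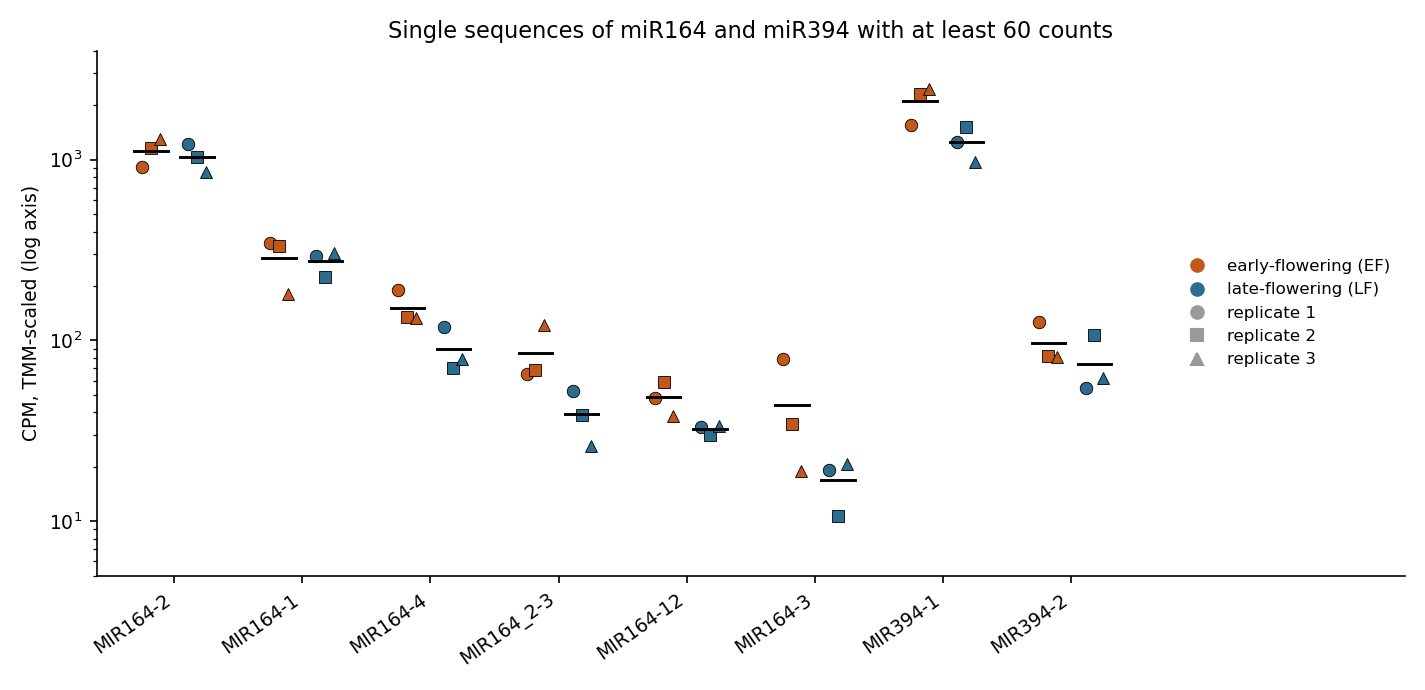
CPM scaled by TMM factors, on a log axis, of the 8 sequences with at least 60 counts; symbols are libraries and lines are means of 3. The early-flowering libraries of jre-MIR164-4, jre-MIR164_2-3, jre-MIR164-12 and jre-MIR394-1 lie above the late-flowering ones, and the other sequences overlap. Of all 243 sequences tested, 19.8% lie wholly above the late-flowering libraries, and members of a family are not independent.

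Below the limit of 60 counts, the 10 remaining miR164 sequences held 91 counts, 1.77% of the family, and the 2 remaining miR394 sequences held 74 counts, 1.30% of it. Just outside the limit lay jre-MIR394-3, which adds 1 base at the 3′ end of jre-MIR394-1 and had 55 counts. Its 5, 16 and 17 counts in early-flowering buds came to 17.2, 26.1 and 27.0 CPM, and its 7, 7 and 3 counts in late-flowering buds to 12.3, 15.0 and 5.61 CPM. The types did not overlap, in a sequence that was not tested. Among the tested sequences, 19.8% lay wholly above the late-flowering libraries. Just inside was jre-MIR164-3, with 83 counts. The most abundant miR164 sequence outside, jre-MIR164-9, had 1, 8 and 7 counts in early-flowering buds, against 4, 6 and 3 counts in late-flowering buds. The 4 rarest, jre-MIR164-5, jre-MIR164-10, jre-MIR164-11 and jre-MIR164_3-1, were seen once each.

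A list of 9 families known in model plants to act in meristems, organ boundaries or organ polarity gave the context (miR160, miR164, miR165, miR166, miR171, miR319, miR390, miR394 and miR396). Of these, 8 were tested, 1 rose, 0 fell and 7 did not pass. Over all 37 families, 8.11% were called higher and 13.5% in either direction, so 1 of 8 is near the background. The family that rose was miR319, which targets TCP genes of leaf and petal growth, at 7343 ± 1011 CPM in early-flowering buds and 3253 ± 553 CPM in late-flowering buds (SD, n = 3 each; edgeR adjusted p = 0.00276). The median log2 fold change of the 8 was 0.39, against −0.01 over all 37 families. Of their 79 tested sequences 5 rose and 2 fell, none of them of miR164 or miR394, against 4.94% and 6.58% of all 243 sequences.

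**Figure D4:**
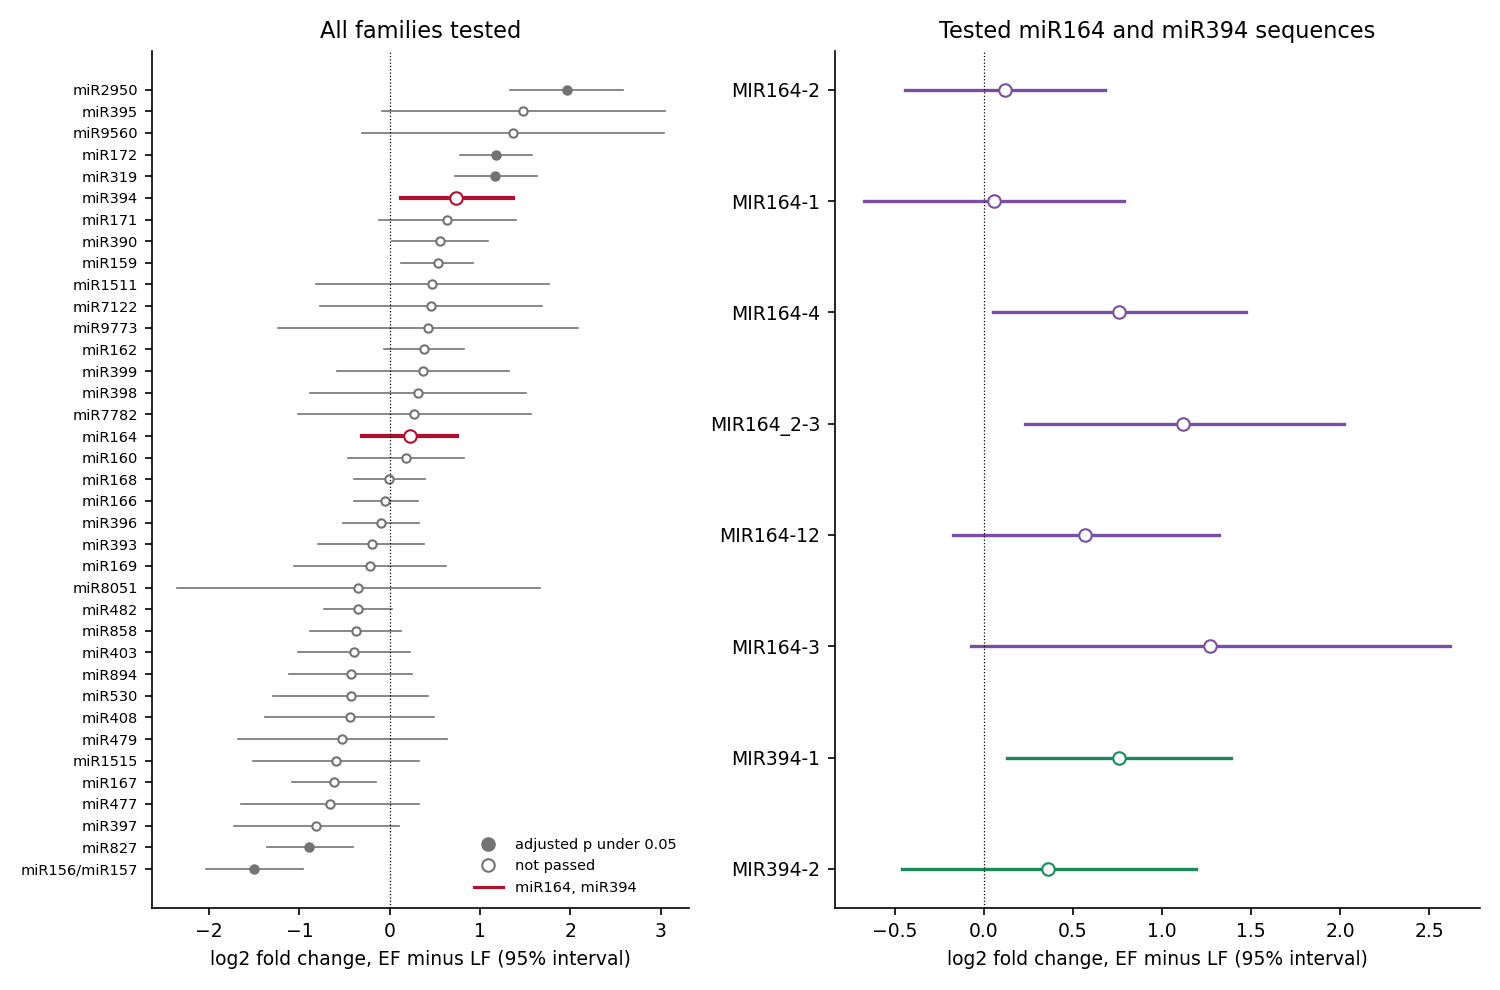
Log2 fold changes, early-flowering minus late-flowering, with 95% intervals, for the 37 families tested (left) and the 8 tested miR164 and miR394 sequences (right). miR394 (0.74) is the sixth family from the top with an interval above 0 but did not pass after adjustment, and miR164 (0.22) spans 0.

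The families whose pattern lay closest were found by the root mean square difference of mean-centred log2 CPM over the 6 libraries, among the 35 other tested families. For miR394 these were miR390, which triggers trans-acting siRNAs against auxin response factors, at 0.25, then miR171, which targets GRAS genes of the HAM type, at 0.28, and miR162, which targets DICER-LIKE1, at 0.29. The median over the 35 families was 0.68. For miR164 they were miR159, a regulator of GAMYB genes, at 0.18, miR168, which targets ARGONAUTE1, at 0.18, and miR160, which targets auxin response factors, at 0.20, against a median of 0.51. miR390 did not pass (log2 fold change 0.56, edgeR adjusted p = 0.171). It had 1999, 2643 and 2830 CPM in early-flowering buds and 2017, 1528 and 1527 CPM in late-flowering buds. Its lowest early-flowering library was replicate 1, as for miR394. The same held for miR164, miR171, miR159, miR168 and miR160, but not for miR162. Apart from miR164, these families were picked for likeness over the same libraries, so a shared low replicate is partly built into the choice. How often it occurs over all families was not counted. Between them, miR164 and miR394 differed by 0.35 on this measure.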

How the data were processed

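The deposited table holds raw counts of listed mature miRNA sequences, per the file headers. Mapping and naming of miRNAs by the authors, and the small RNA kit, remain not given in the sources used here. Per the labels' protocols, a poly(A) mRNA kit is described for every sample, small RNA samples included. FastQC, HISAT2, Cufflinks and DESeq2 are named without a role in the submitters' processing notes. A sequence's family was read from the number of its matched name, miR156 and miR157 were treated as a single family, and both arms were summed. Counts of all sequences and of all family sums were tested with edgeR 4.0.16 (R 4.3.3): filterByExpr with a minimum count of 10, TMM factors of the sequence table, robust quasi-likelihood fits with walnut type as the only term, and Benjamini-Hochberg adjustment over 243 sequences or 37 families. Standard errors are the fold change divided by the root of the F statistic. Within-library shares and ratios used exact permutation tests in scipy 1.17.1. Alternatives used DESeq2 1.42.0, limma 3.58.1 and other settings. The fits were also run on counts simulated with planted changes from the spread of these libraries. That run checks the code and not the limits of the data, and its values are not given here. Named were all members with at least 60 counts, the next below, passing families of the list and the 3 most similar families. For that similarity, 1 CPM was added before taking log2, and the pairing check added 10 CPM. The members and lists were chosen with earlier results of these data known. The mRNA table was not used, since its gene IDs carry no names.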

Additional observations from a re-analysis of the deposited data

How the results depend on the processing

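The log2 fold change of miR394 was positive in 18 of 18 alternatives and passed in 1, without early-flowering replicate 1 (0.86); it was 0.46 to 0.90 with single libraries left out and 0.67 to 0.84 otherwise. That of miR164 was positive in 18 of 18 and passed in 0, at 0.03 to 0.34 and 0.12 to 0.30. For miR394, the 2 other filters, the deposited family column and the fit without 3p-named sequences kept its counts and the scaling. Its value of 0.74 was therefore fixed in advance in those settings. No member sequence passed in any of 15 alternatives (0 calls each), of which the stricter adjusted p under 0.01 could not add a call. The miR394 to miR164 log2 ratio differed by 0.41 to 0.71 with a library left out. The replicate block gave 0.74 for miR394 (edgeR adjusted p = 0.176) and 0.23 for miR164 (edgeR adjusted p = 0.707). For the ratio, paired sign flips, whose smallest p is 0.25, kept 0.52. That value was fixed in advance, since pairing equal numbers of libraries leaves the difference of means unchanged. Libraries of the same number did not deviate together (correlations across 243 sequences of −0.111, −0.0507 and −0.395). No library correlated best with its own number, and the block changed no call. With a library left out, the share of the main form differed by −8.84 to −0.654 percentage points for miR164 and −0.406 to 1.90 for miR394, and the 3p-named share of miR164 by −4.04 to 1.02. Signs also changed for the 3p share of miR164 with arms read from the sequence (0.247 points), an alternative added after seeing the data like the main form alone, and for jre-MIR164-1 with DESeq2 size factors (−0.02), total counts (−0.03), the DESeq2 test (−0.02), merged near-identical sequences (−0.02) and a library left out (−0.15 to 0.13); the main miR164 form, jre-MIR164-2, ran from −0.16 to 0.25. The cause was not tested. Of the 8 tested sequences the rarest, jre-MIR164-3, with 5 to 23 counts a library, had the least certain fold change (SE 0.59).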
